A study of Mus musculus with 12 samples.

Results

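The interferon-stimulated genes described here are 34 genes named by symbol. Each symbol was looked up in the deposited gene table, each matched 1 Ensembl gene, and all 34 are among the 52636 genes counted. They comprise 18 antiviral effectors, 4 nucleic acid sensors, 4 transcription factors, 4 guanylate-binding proteins (GBPs) and 4 immunity-related GTPases (IRGs). All 34 passed the filter on low counts that left 16679 genes for testing. The libraries are bulk RNA-seq of Cx3cr1+ macrophages from mouse lung, 4 in each of 3 groups: saline with Il4ra labelled WT, bleomycin with Il4ra labelled WT, and bleomycin with Il4ra labelled KO. Bleomycin is a drug that injures the lung and leads to fibrosis, and Il4ra encodes the alpha chain through which IL-4 and IL-13 both signal. The sources used here do not give the dose, time after treatment, strain, sex, age, means of deletion or number of animals behind a library. No group combines saline with the KO label.

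Interferons are secreted proteins that cells release on sensing viral nucleic acid or other danger signals. Type I interferons act through a receptor whose signal leads to binding at the interferon-stimulated response element (ISRE) in target genes, with IRF9 making contact with the DNA. Interferon gamma, the type II interferon, acts through a separate receptor, and many of its early targets carry the gamma-activated site (GAS). Antiviral effectors such as Isg15 and the Ifit genes are typical type I targets. GBPs and IRGs are large GTPases that attack the vacuoles of intracellular microbes, and in macrophages they respond to both interferon types.

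The libraries held between 60598 (saline WT 2) and 18051113 counts, and 3 of them stood apart from the rest. In saline WT 2, 3 counts corresponded to 32.4 CPM (read counts scaled to a common library size by the TMM method), and 18 of the 34 genes had no count. Its best Spearman match to another library was 0.498, against 0.658 for saline WT 1, 0.730 for bleomycin WT 4 and 0.865 or more for each of the other 9. Bleomycin WT 4 had 9756454 counts but counts in only 17835 genes, and its TMM factor was 0.579. Results are therefore given for all 12 libraries and for the 10 without saline WT 2 and bleomycin WT 4. Saline WT 1 stays in both sets, although its best match was lower than that of bleomycin WT 4. The macrophage markers Lyz2 (9318 CPM or more) and Csf1r (273 CPM or more) were present in every library, while Cx3cr1 itself stood at 53.5 to 940 CPM in 11 libraries and at 7.46 CPM in bleomycin WT 4. Il4ra stood at 332 ± 104 CPM under the KO label and 355 ± 203 CPM in bleomycin WT (SD, n = 4 each), with overlapping libraries. The log2 fold change was -0.09 (SE 0.58) in 12 libraries and -0.35 (SE 0.37) in the 10, neither past the test. The deleted part of the gene is not given, so the counts do not check the genotype and KO below is used as a label only. In such bulk samples fewer cells of a type and less RNA per cell cannot be told apart.

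Many of these genes carry the ISRE or GAS core letters close to their start, and a few windows are shown because they separate ISRE-only, GAS-only and mixed genes. RefSeq promoters (GRCm38.p6, searched over 250 bases before the start) were matched for 25 of the 34 genes. The ISRE core, GAAA followed after any 2 bases by another GAAA, on either strand, was found in 14 of the 25 (56.0%), against 3.46% of the 27025 genes in the promoter table. The GAS core TTCNNNGAA, on either strand, was found in 7 of the 25 (28.0%), against 8.13% of all genes. Both cores were found in 5 of the 25, and neither in 9 (Cmpk2, Oasl1, Oasl2, Ifi44, Xaf1, Ifih1, Irf7, Irf9 and Ifi47). Of the antiviral effectors 7 of 13 held the ISRE core and 3 of 13 the GAS core, and of the GBP and IRG GTPases 6 of 7 and 3 of 7. The matches of Gbp2, Gbp5 and Irgm1 reach into the gene body of a second annotation, GENCODE. Whether they precede the start therefore depends on the annotation used. The windows below run 5′ to 3′ on the strand of the gene, capitals mark the matched letters of either core, and overlapping matches merge. Isg15, Ifit1 and Gbp3 hold the ISRE core only, Irf1 the GAS core only, and Igtp and Bst2 both.
Isg15, chr4:156200855-156200916, minus strand: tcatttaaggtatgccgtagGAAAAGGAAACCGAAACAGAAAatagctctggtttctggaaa
Ifit1, chr19:34640765-34640833, plus strand: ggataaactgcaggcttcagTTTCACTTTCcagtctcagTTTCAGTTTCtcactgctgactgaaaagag
Gbp3, chr3:142559979-142560025, plus strand: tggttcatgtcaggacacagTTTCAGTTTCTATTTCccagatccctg
Irf1, chr11:53769904-53769952, plus strand: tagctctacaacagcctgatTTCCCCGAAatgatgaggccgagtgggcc
Igtp, chr11:58199491-58199551, plus strand: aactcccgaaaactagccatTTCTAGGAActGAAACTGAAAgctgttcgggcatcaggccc
Bst2, chr8:71537567-71537628, minus strand: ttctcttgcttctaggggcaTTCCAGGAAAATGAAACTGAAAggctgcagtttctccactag
The Isg15 match ends 56 bases before the RefSeq start, and the Igtp match ends 24 bases before it. A match is a description of letters, not a measured binding site.

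Transcripts of most of the 34 genes were present in every group. Per kilobase of exon, Bst2 (tetherin, which holds budding virus at the membrane) was the most abundant at 172 CPM per kb averaged over the 12 libraries. Irf1 followed at 78.6, Irf7 at 59.1, Isg15 at 54.3 and Oasl2 at 50.5 CPM per kb. The lowest were Mx1 at 4.72, Ifi44 at 2.09 and Mx2 at 1.12 CPM per kb, and Mx2 is annotated as a polymorphic pseudogene. Over all 12 libraries, agreement between libraries differed by group more than the mean level did. The median standard deviation of the 34 genes on the log2(CPM + 1) scale was 1.77 in saline WT, 1.21 in bleomycin WT and 0.29 in the group labelled KO, against 1.60, 0.85 and 0.43 over all tested genes. Without bleomycin WT 4 the bleomycin WT value was 0.24, beside 0.39 over all tested genes, and so below the 0.29 of the KO-labelled group. Without saline WT 2 the saline value was 0.92, beside 0.83 over all tested genes.

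**Figure D1:**
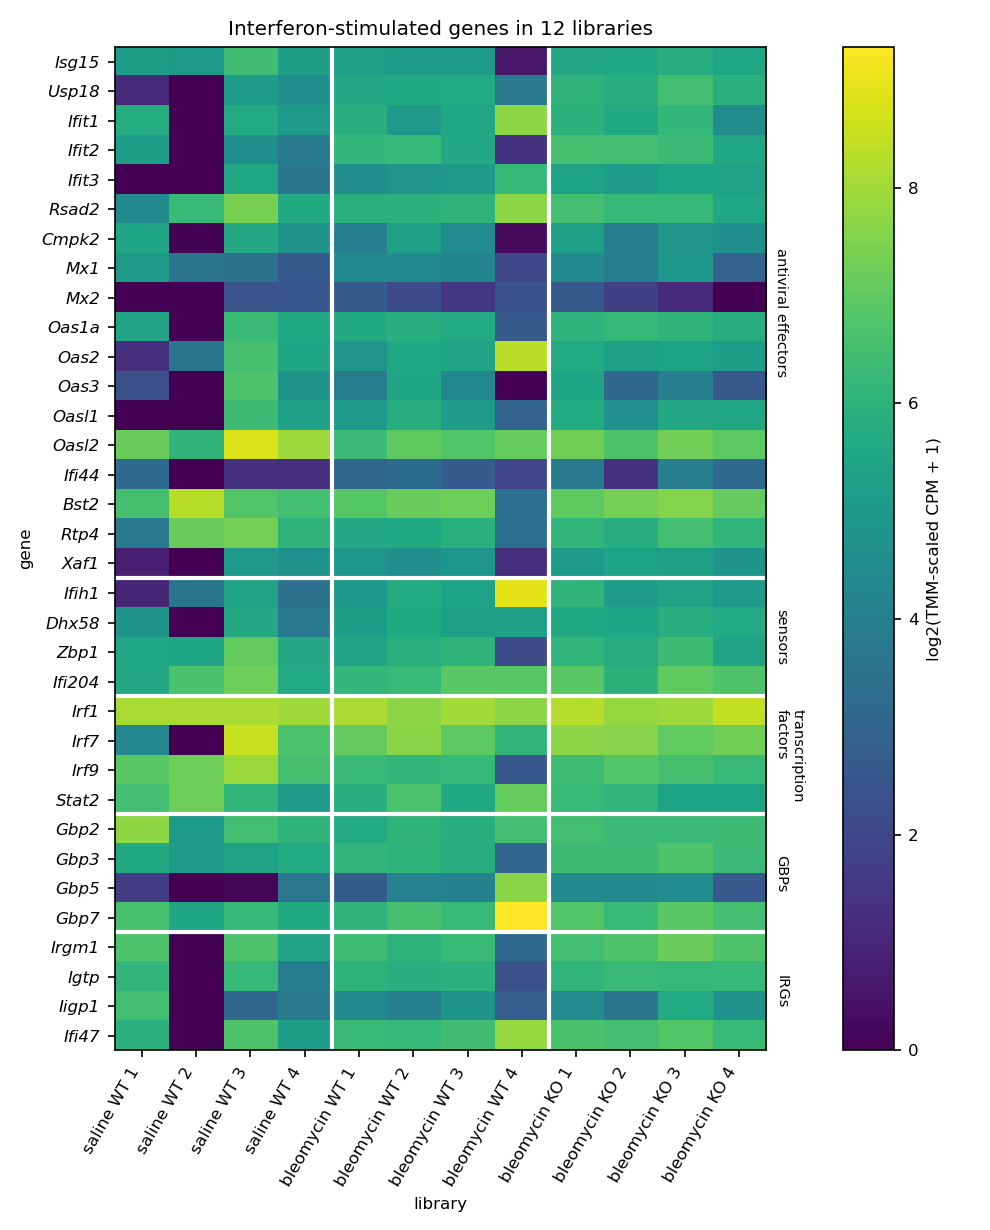
Heat map of the 34 genes (rows, grouped by role) in the 12 libraries (columns, grouped by condition), coloured by log2 of TMM-scaled CPM + 1. Dark columns at saline WT 2, where 18 genes have no count, and bleomycin WT 4 contrast with the even columns of the 4 libraries labelled bleomycin KO.

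Among the antiviral effectors, Isg15 (ENSMUSG00000035692, chr4:156199424-156200818, minus strand, GRCm38) encodes a ubiquitin-like protein that is attached to newly made proteins. It stood at 35.3, 32.4, 87.3 and 36.4 CPM in saline WT 1 to 4. It was at 36.7, 34.7, 34.7 and 0.533 CPM in bleomycin WT, the last from 3 counts, and at 47.9, 46.5, 55.2 and 45.3 CPM under the KO label. Every library labelled KO was above every bleomycin WT library, and saline WT overlapped both. Usp18 removes Isg15 from its targets and dampens type I receptor signalling. It measured 1.22, 0, 33.9 and 24.5 in saline WT, 48.2, 49.7, 51.9 and 12.6 in bleomycin WT and 65.9, 57.2, 87.8 and 59.7 CPM under the KO label. The KO-labelled libraries were above all 8 others, while bleomycin WT 4 lay among the saline libraries. Bst2 measured 92.7, 313, 109 and 88.8 CPM in saline WT, where the 313 rests on 29 counts. In bleomycin WT it measured 113, 141, 153 and 9.42 CPM, and under the KO label 127, 162, 190 and 132 CPM, so the last group overlapped bleomycin WT.

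The oligoadenylate synthetase family, whose catalytic members make the signal that switches on RNase L, differed most among the saline libraries. Oasl2, an OAS-like member that carries ubiquitin-like domains, measured 145, 64.9, 447 and 244 in saline WT, 80.0, 126, 110 and 137 in bleomycin WT and 154, 103, 157 and 124 CPM under the KO label. Oas3 measured 3.89, 0, 103 and 26.2 in saline WT, 14.3, 44.2, 19.4 and 0 in bleomycin WT and 44.8, 7.71, 14.8 and 5.01 CPM under the KO label. Saline WT 3 was the highest saline library for both genes, and the 3 groups overlapped. Rtp4, which encodes a receptor transporter protein, measured 13.1, 141, 165 and 65.0 in saline WT, 47.7, 49.0, 59.3 and 9.60 in bleomycin WT and 67.9, 54.8, 88.4 and 69.2 CPM under the KO label. Its saline libraries overlapped both bleomycin groups, and bleomycin WT 4 was the lowest of the 12 libraries. The remaining 12 effectors (Ifit1, Ifit2, Ifit3, Rsad2, Cmpk2, Mx1, Mx2, Oas1a, Oas2, Oasl1, Ifi44 and Xaf1) had group means between 2.19 CPM (Mx2, KO label) and 109 CPM (Oas2, bleomycin WT). That Oas2 mean was carried by 320 CPM in bleomycin WT 4, against 27.9 to 45.8 CPM in the other 3 libraries of the group. Ifit3, Oas1a and Ifi204 have near-identical relatives, so how reads were divided among copies is uncertain for them.

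Of the sensors, Ifih1 encodes MDA5, which recognises long double-stranded RNA. It measured 0.973, 10.8, 42.6 and 9.85 in saline WT, 30.3, 51.5, 41.4 and 479 in bleomycin WT and 65.6, 34.02, 39.999 and 31.8 CPM under the KO label. Bleomycin WT 4 alone set its bleomycin WT mean, and the other 3 overlapped both groups. Zbp1, which senses Z-form nucleic acid and can start necroptosis, measured 45.7, 43.2, 132 and 48.5 in saline WT, 42.1, 58.5, 65.7 and 3.55 in bleomycin WT and 67.9, 54.1, 82.5 and 42.7 CPM under the KO label. Ifi204, a relative of the DNA sensor IFI16, measured 47.9, 97.3, 152 and 51.1 in saline WT, 70.4, 76.2, 120 and 118 in bleomycin WT and 119, 62.2, 127 and 106 CPM under the KO label. Both genes overlapped across the 3 groups. Dhx58 (LGP2, a helper of MDA5) had means of 21.9 ± 20.4, 40.8 ± 5.97 and 50.0 ± 4.61 CPM in saline WT, bleomycin WT and the KO-labelled group (SD, n = 4 each).

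The transcription factors included the genes with the narrowest and the widest spread over the saline libraries, Irf1 and Irf7. Irf1 is induced quickly by interferon gamma and holds the GAS core match printed above. Its level measured 271, 281, 276 and 252 in saline WT, 278, 206, 259 and 203 in bleomycin WT and 306, 226, 242 and 346 CPM under the KO label. It kept to that range in saline WT 2 and bleomycin WT 4 too, and its standard deviation in saline WT was 0.07 on the log2(CPM + 1) scale, although the saline WT 2 value rests on 26 counts. Irf7, the factor that amplifies interferon alpha production, measured 19.0, 0, 367 and 101 in saline WT, 133, 200, 123 and 66.6 in bleomycin WT and 207, 195, 130 and 154 CPM under the KO label. Its saline libraries lay below, within and above the other groups. Irf9, the DNA-binding part of the type I complex, measured 119, 151, 238 and 93.6 in saline WT, 78.4, 71.0, 73.4 and 4.98 in bleomycin WT and 84.5, 110, 92.8 and 76.9 CPM under the KO label. All bleomycin WT libraries were below all saline libraries, and the KO-labelled group overlapped both. Stat2, its partner, had means of 86.7 ± 49.2, 85.3 ± 40.9 and 57.4 ± 19.2 CPM in the same order of groups (SD, n = 4 each).

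The 4 GBP genes lie together on mouse chromosome 3 (GRCm38), from Gbp5 at chr3:142493978-142522344 to Gbp2 at chr3:142620602-142638008. Gbp2 measured 212, 32.4, 88.5 and 64.6 in saline WT, 51.5, 65.6, 57.2 and 90.8 in bleomycin WT and 88.4, 79.8, 80.1 and 81.5 CPM under the KO label, where its log2 spread was the smallest of the 34 genes. Gbp3 measured 49.1, 32.4, 40.2 and 50.4 in saline WT, 68.8, 63.8, 54.5 and 7.11 in bleomycin WT and 82.3, 81.6, 107 and 80.7 CPM under the KO label. The KO-labelled libraries were above all 8 others for Gbp3. Gbp5, which promotes inflammasome assembly, measured 2.19, 0, 0.103 and 11.9 in saline WT, 5.69, 16.6, 15.9 and 199 in bleomycin WT and 21.1, 20.6, 22.0 and 5.13 CPM under the KO label. Gbp7 measured 96.1, 43.2, 75.0 and 49.5 in saline WT, 66.0, 92.2, 78.8 and 631 in bleomycin WT and 109, 76.7, 120 and 91.5 CPM under the KO label. For both genes bleomycin WT 4 was far above the other 11 libraries, which is the reverse of its position for Gbp3.

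Of the IRGs, Irgm1 regulates the other members and autophagy. It measured 103, 0, 102 and 39.7 in saline WT, 85.1, 64.0, 75.5 and 7.997 in bleomycin WT and 89.3, 104, 146 and 107 CPM under the KO label. Igtp (Irgm3) measured 69.3, 0, 75.1 and 14.9 in saline WT, 63.5, 56.5, 60.3 and 3.91 in bleomycin WT and 68.7, 78.7, 73.2 and 75.0 CPM under the KO label. In both genes the KO-labelled libraries were above all bleomycin WT libraries and overlapped saline WT. Ifi47 measured 60.1, 0, 103 and 35.2 in saline WT, 77.2, 73.3, 85.9 and 227 in bleomycin WT and 98.0, 91.6, 112 and 75.5 CPM under the KO label. Iigp1, the effector that coats vacuoles, ranged from 0 to 89.0 CPM in saline WT, 5.86 to 27.0 CPM in bleomycin WT and 11.5 to 50.7 CPM under the KO label. Those ranges overlapped.

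**Figure D2:**
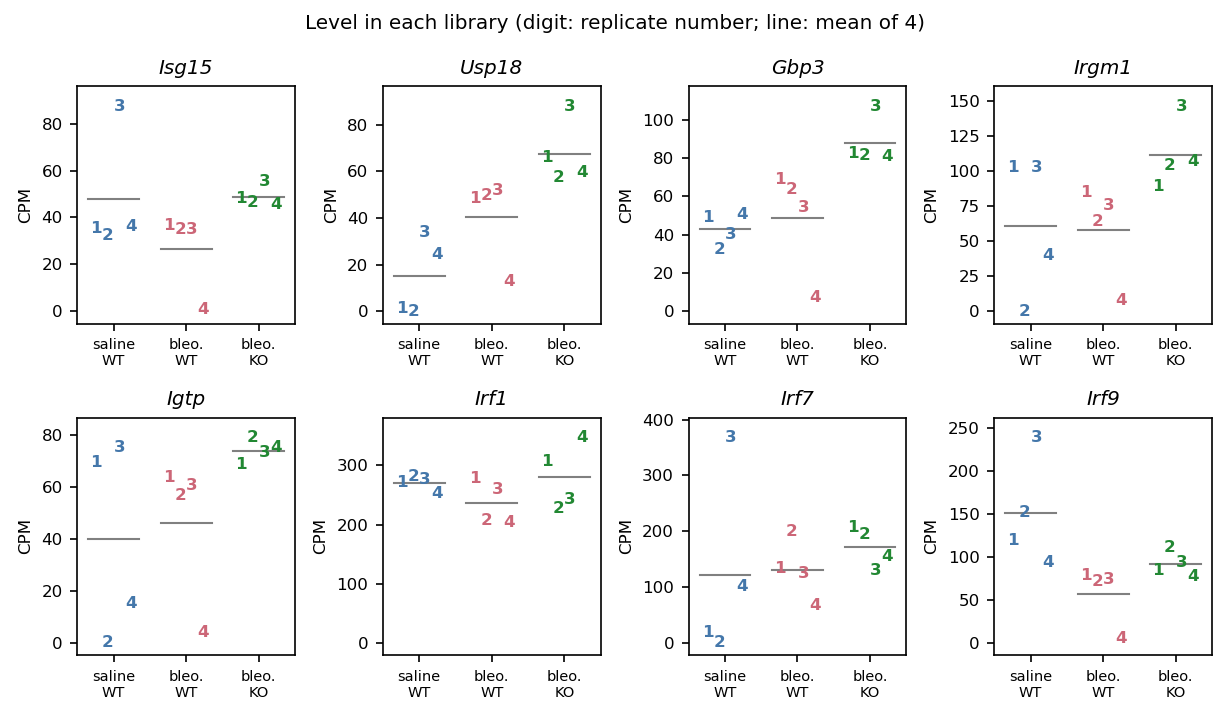
TMM-scaled CPM (vertical axes, linear and including 0, a separate scale for each gene) of 8 genes in the 3 groups, with each digit standing for the replicate number of 1 library and the grey line for the mean of 4. The KO-labelled libraries lie above all bleomycin WT libraries for Isg15, Usp18, Gbp3, Irgm1 and Igtp, and Irf1 stays between 203 and 346 CPM.

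Set against each other within a library by their medians, the antiviral effectors stood at or below the GTPases in all 12. The median of the 18 effectors minus the median of the 8 GTPases, on the log2(CPM + 1) scale, was -0.72, -0.84, -0.83 and -0.85 in the libraries labelled KO 1 to 4, the narrowest range of the 3 groups. It was -0.90, -0.50, -0.61 and -2.04 in bleomycin WT 1 to 4 and -2.19, 0.00, -0.24 and -0.31 in saline WT 1 to 4, where both medians of saline WT 2 were 0. The groups overlapped. By mean CPM per gene the order was turned in saline WT 2 (36.0 CPM for the effectors against 13.5 CPM for the GTPases), saline WT 3 (87.9 against 61.5 CPM) and saline WT 4 (43.7 against 34.9 CPM), and the effectors were below the GTPases in the other 9 libraries. Neither measure was divided by exon length. The order of the means can differ per kb of exon, where the effector Bst2 alone averaged 193 CPM per kb under the KO label. Saline WT 1 combined Gbp2 at 212 CPM with no count of Ifit3 or Oasl1, and saline WT 3 had the highest level of its group for 20 of the 34 genes, against 29.8% of tested genes. Saline WT 3 was past 4-fold above the median of the other saline libraries for 10 of the 34 genes (14.7% of tested genes) and past 4-fold below for 0 (3.95%), with 1 added to each CPM. That library also held the highest summed neutrophil markers (28882 CPM for 8 genes, against 2677 to 18209 CPM in the other saline libraries) and monocyte markers (4416 CPM for 8 genes, against 897 to 2895 CPM). It was the highest saline library for B cell (368 against 64.9 to 324 CPM) and endothelium sums (377 against 64.9 to 227 CPM) too. The same held for plasmacytoid dendritic (187 against 136 to 184 CPM) and macrophage sums (33937 against 14290 to 33527 CPM). T and NK sums were highest in saline WT 4 and epithelium sums in saline WT 1. The part of those cells in the interferon values was not tested.

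**Figure D3:**
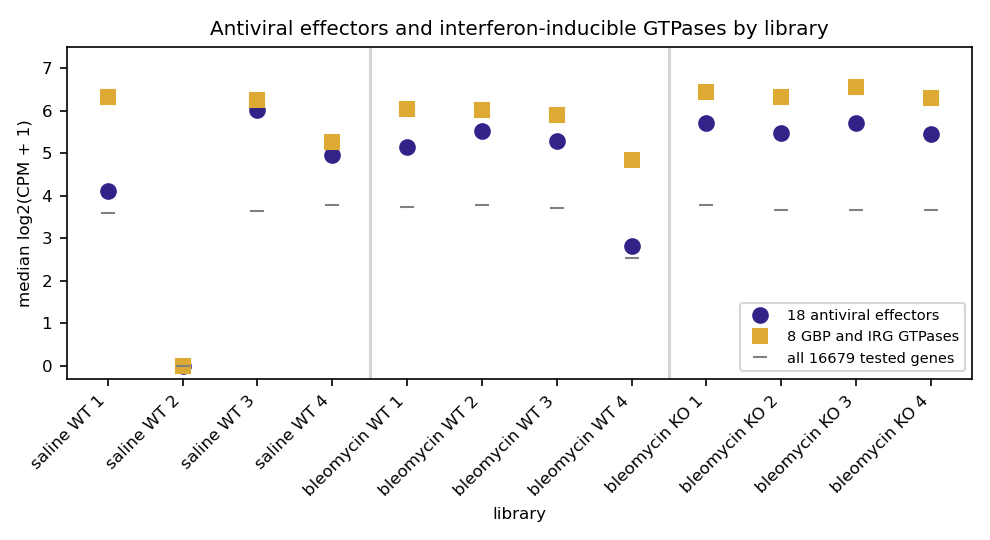
Median log2(CPM + 1) (vertical axis) of the 18 antiviral effectors (circles), the 8 GBP and IRG GTPases (squares) and all 16679 tested genes (dashes) in each library (horizontal axis). The GTPases are above the effectors by 0.72 to 0.85 in the 4 KO-labelled libraries, and by 2.19 and 2.04 in saline WT 1 and bleomycin WT 4.

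The first comparison, bleomycin WT against saline WT, asks what bleomycin did with Il4ra labelled intact. The 34 genes differed in both directions and none passed the test: 0 of 34 were called by edgeR at an adjusted p under 0.05, where 0.024% of all tested genes were called. At an unadjusted p under 0.05 there were 4 (Irf9, Ifih1, Gbp5 and Gbp7), against 14.7% of tested genes, and DESeq2, limma-voom and limma-voom with quality weights also called 0 of the 34. The labels do not say that the libraries of a group are separate animals, so every p measures only the spread between these libraries. The median log2 fold change of the 34 genes was 0.06, beside 0.08 for all tested genes, and 20 of 34 were above 0, beside 52.9% of all genes. The antiviral effectors had a median of 0.18 and the GTPases 0.11. Without saline WT 1 these were -0.08 and 0.69, and without saline WT 3 they were 0.86 and 0.43, so their order depended on which saline library was left out. With DESeq2 size factors in place of TMM, the median of all genes moved from 0.08 to -0.09 and that of the 34 genes from 0.06 to -0.07. Without saline WT 3 the median of the 34 was 0.68, beside 0.24 for all genes, with 24 of 34 above 0, and with quality weights it was 0.29, beside 0.06.

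The highest fitted values were Gbp5 at 3.74 (SE 1.31, edgeR adjusted p = 0.244) and Ifih1 at 3.14 (SE 1.05, adjusted p = 0.237) on the log2 scale. Both rest on bleomycin WT 4: without it and saline WT 2 they were 1.41 (SE 1.10) and 1.18 (SE 0.86), with edgeR adjusted p = 0.581 and 0.555. Gbp7 went from 1.68 (SE 0.69) to 0.07 (SE 0.29). Fitted with no filter on low counts, edgeR called Ifih1 and Gbp5 (smaller adjusted p = 0.00776), the only 2 of the 34 called under any alternative run. The lowest were Irf9 at -1.40 (SE 0.65) and Rtp4 at -1.17 (SE 0.71), and in 10 libraries these were -1.04 (SE 0.32) and -0.65 (SE 0.63). Oasl2 was -1.02 (SE 0.52) in 12 libraries and -1.42 (SE 0.37) in 10, where its edgeR adjusted p of 0.130 was the smallest of the 34.

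Counted by separation of libraries, 0 of 34 genes were higher in all bleomycin WT than in all saline WT libraries (4.93% of tested genes), and 1, Irf9, was lower (0.929%). DESeq2 size factors added Isg15 to the lower genes (2 of 34, beside 1.22%). In the 10 libraries, 4 were higher (Usp18, Ifit2, Bst2 and Gbp3, beside 12.2%) and 2 lower (Oasl2 and Irf9, beside 8.93%), shares near those of all genes. In that fit 0 of 34 were called (0.431% of genes) and 4 had an unadjusted p under 0.05 (14.0%). Neutrophil markers summed to 2677 to 28882 CPM over the saline libraries and to 561 to 1606 CPM over bleomycin WT, and S100a9 was called lower in the 10 libraries (-4.01, SE 0.67, edgeR adjusted p = 0.0407). Epithelium markers also separated as a sum, with 7 genes at 1465 to 2347 CPM in saline WT against 263 to 874 CPM in bleomycin WT. Sftpc, the most abundant of them, averaged 526 CPM over the 12 libraries. By gene, Cdh1 (1.77, SE 0.76) and Ager (0.59, SE 0.80) were above 0 in 12 libraries, and the other epithelium markers below 0. Macrophage markers were at 14290 to 33937 CPM in saline WT, below bleomycin WT 1 to 3 (46782 to 50866 CPM) but not below bleomycin WT 4 (28677 CPM). Lyz2, the most abundant of them, averaged 31033 CPM over the 12 libraries. By gene, Cx3cr1 (-2.54, SE 0.79), Csf1r (-0.20, SE 0.51) and Itgam (-0.11, SE 0.57) were below 0 in 12 libraries, and the other macrophage markers above 0. The part of these cells in the interferon-stimulated gene values was not tested.

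**Figure D4:**
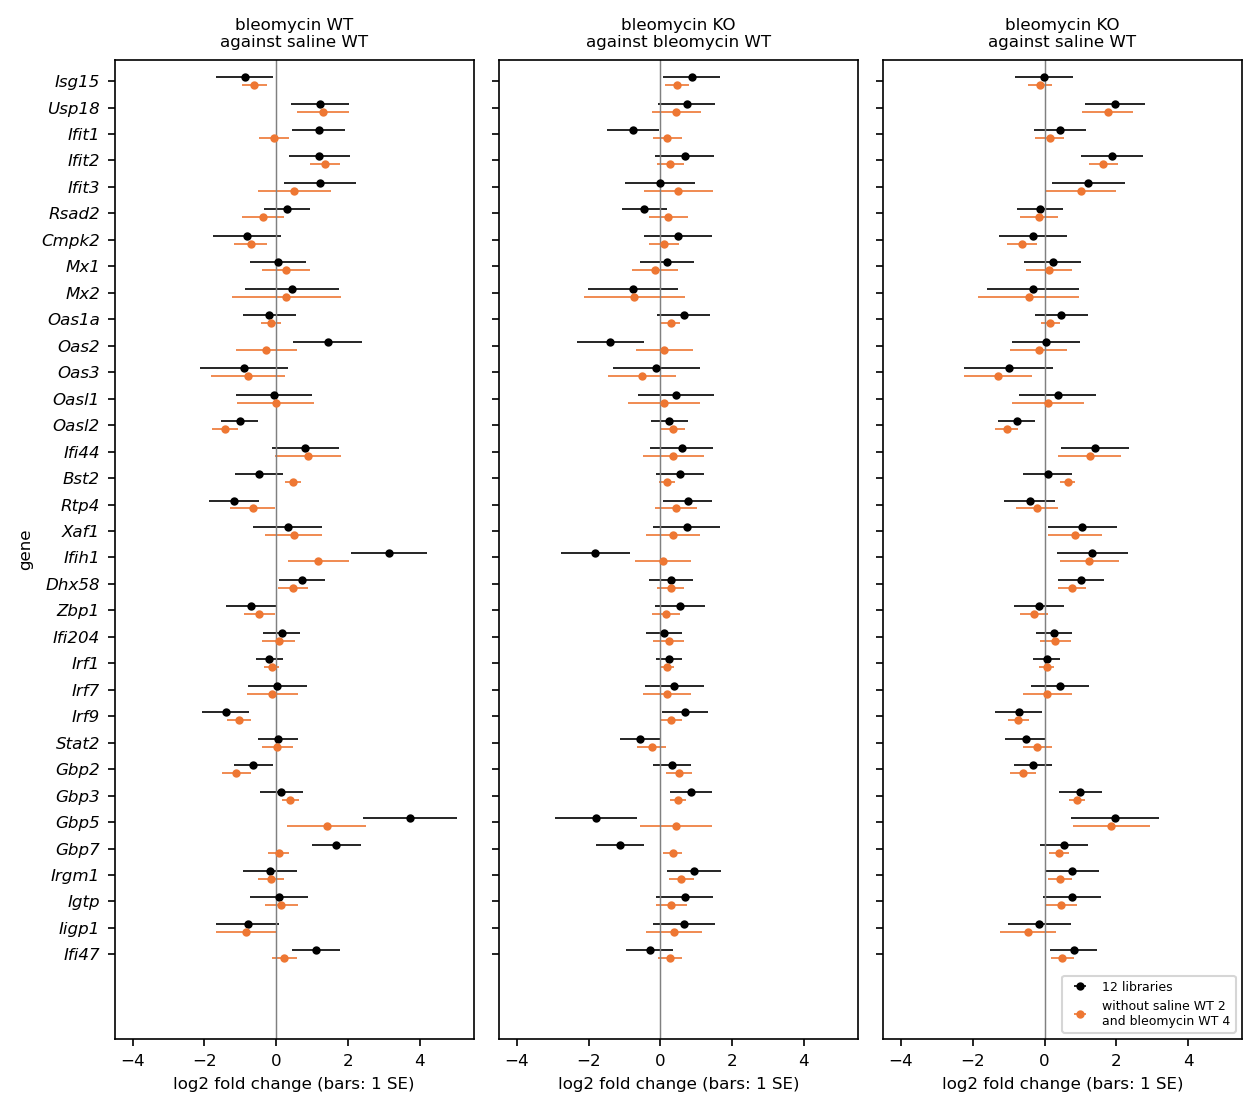
Fitted log2 fold change (horizontal axes, bars 1 SE) of each of the 34 genes in the 3 comparisons, from the fit of 12 libraries (black) and of 10 libraries without saline WT 2 and bleomycin WT 4 (orange). In the middle panel Ifih1, Gbp5 and Gbp7 move from -1.81, -1.78 and -1.13 to 0.07, 0.44 and 0.34, and in 10 libraries 30 of 34 genes are above 0.

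Several fitted signs of the middle comparison, bleomycin KO against bleomycin WT, turned when bleomycin WT 4 was left out. The median of the 34 genes there moved most without bleomycin WT 2, to 0.64, and was 0.26 without bleomycin WT 4. Against the median of the other 3 libraries of its group, it was past 4-fold higher for 5 of the 34 genes (11.5% of tested genes) and past 4-fold lower for 15 (22.3%), with 1 added to each CPM. The 5 were Ifit1 at 210 CPM, Oas2 at 320, Ifih1 at 479, Gbp5 at 199 and Gbp7 at 631 CPM. The 15 included Isg15, Ifit2 at 1.60 CPM, Cmpk2 at 0.178, Bst2 at 9.42, Irf9 at 4.98 and Igtp at 3.91 CPM. None of the 34 genes was past 4-fold in either direction in bleomycin WT 1, 2 or 3. Other pathway genes were also far from their group there, with Tbk1 at 984 CPM against 76.9 to 112 CPM and Il10rb at 1216 CPM against 165 to 225 CPM. Summed T and NK cell markers (802 CPM for 10 genes, against 166 to 411 CPM) and B cell markers (593 CPM for 6 genes, against 138 to 258 CPM) were the highest of the group in this library. So were endothelium markers (487 CPM for 7 genes, against 80.5 to 122 CPM), plasmacytoid dendritic markers (313 CPM for 6 genes, against 93.5 to 108 CPM) and epithelium markers (874 CPM for 7 genes, against 263 to 761 CPM), while macrophage and neutrophil markers were the lowest. Ncr1 of the T and NK list, Cldn5 and Tek of the endothelium list and Cox6a2 and Klk1 of the plasmacytoid list had no count there. Siglech, the most specific marker of the plasmacytoid list, was at its lowest level of the group in this library. Tcf4, which other cells express too, made up most of that sum. The part of such cells in its values was not tested.

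**Figure D5:**
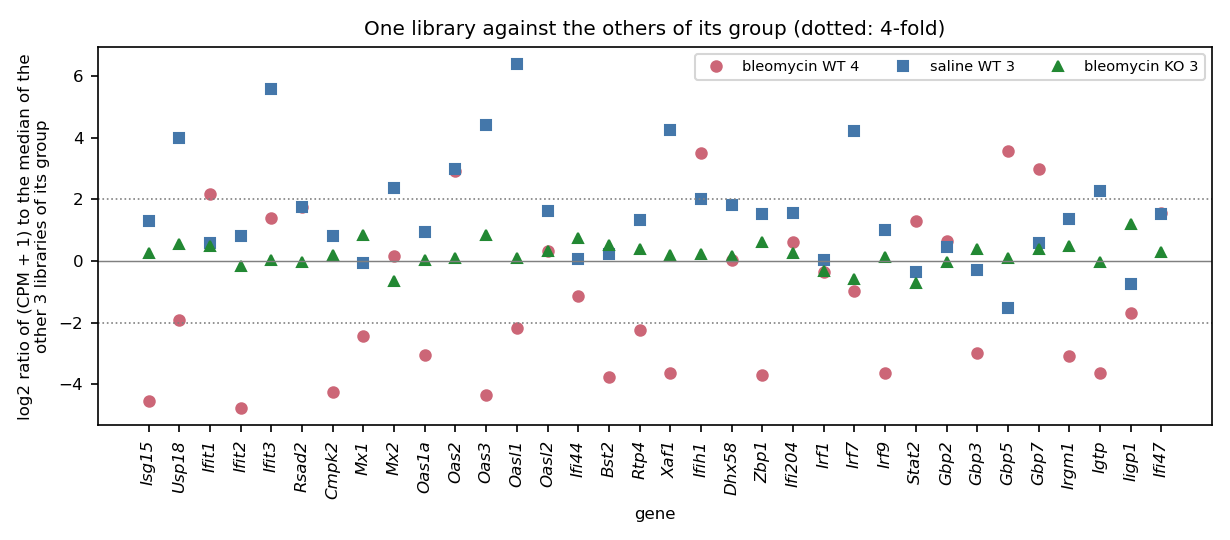
Log2 ratio of (CPM + 1) in 1 library to the median of the other 3 libraries of its group (vertical axis) for each of the 34 genes (horizontal axis), shown for bleomycin WT 4, saline WT 3 and the library labelled bleomycin KO 3. Dotted lines mark 4-fold. Bleomycin WT 4 has 5 genes above and 15 below those lines, saline WT 3 has 10 above, and bleomycin KO 3 has none outside them.

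The second comparison, bleomycin KO against bleomycin WT, asks whether the KO label goes with a difference under bleomycin. The 34 genes were on balance slightly higher under the KO label, but 0 of 34 passed the test with edgeR in either 12 or 10 libraries, and 0.0% of all tested genes passed it in each. At an unadjusted p under 0.05 there were 0 of 34, beside 3.88% of genes, and DESeq2, limma-voom and limma-voom with quality weights called 0. The median log2 fold change was 0.35, beside -0.01 for all genes, with 23 of 34 above 0 (49.3% of all genes). In the 10 libraries the median was 0.28, beside -0.02, with 30 of 34 above 0 (47.6% of all genes), and the 4 below were Mx1, Mx2, Oas3 and Stat2. Over all alternatives run the median stayed between 0.26 and 0.64. These are descriptions of genes that share regulators and libraries, and no test was made over the list.

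The antiviral effectors had a median of 0.46 and the GTPases of 0.48 in 12 libraries, and 0.25 and 0.41 in 10. In 10 libraries all 8 GTPases were above 0, between 0.27 and 0.59, as were 15 of the 18 effectors, between -0.73 and 0.50. The highest single values in 12 libraries were Irgm1 at 0.94 (SE 0.75), Isg15 at 0.87 (SE 0.79) and Gbp3 at 0.86 (SE 0.59). In 10 libraries they were 0.59 (SE 0.34), 0.47 (SE 0.33) and 0.50 (SE 0.22). Gbp3 was the only gene of the 34 with an unadjusted p under 0.05 there (edgeR adjusted p = 0.9999), beside 0.92% of tested genes. The negative values of Ifih1 (-1.81, SE 0.97), Gbp5 (-1.78, SE 1.14), Oas2 (-1.39, SE 0.94), Gbp7 (-1.13, SE 0.67) and Ifit1 (-0.76, SE 0.72) turned to 0.07, 0.44, 0.11, 0.34 and 0.20 in 10 libraries.

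By separation of libraries, 5 of 34 genes (Isg15, Usp18, Gbp3, Irgm1 and Igtp) were higher in all 4 KO-labelled libraries than in all 4 bleomycin WT libraries, beside 0.905% of tested genes. None was lower (0.594% of genes). Isg15, Usp18 and Gbp3 kept the separation with DESeq2 size factors, while Irgm1 and Igtp lost it and Oas1a gained it (4 of 34, beside 0.833%). Without bleomycin WT 4 there were 7, the first 5 with Ifit3 and Gbp2 (1.44% of genes), and again none lower (1.68%). The gaps are narrow: the lowest KO-labelled Igtp value of 68.7 CPM faced a highest bleomycin WT value of 63.5 CPM, and for Usp18 the values were 57.2 and 51.9 CPM. Summed macrophage markers were 47466 to 68188 CPM under the KO label and 46782 to 50866 CPM in bleomycin WT 1 to 3, with 28677 CPM in bleomycin WT 4.

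The third comparison, bleomycin KO against saline WT, differs in both treatment and label and shares libraries with the other comparisons. Again 0 of 34 genes passed with edgeR (0.018% of genes), 2 had an unadjusted p under 0.05 (Usp18 and Ifit2, beside 9.03%), and the other 3 tools called 0. Usp18 was 1.96 (SE 0.83, edgeR adjusted p = 0.507) and Ifit2, an RNA-binding antiviral protein, 1.88 (SE 0.86, adjusted p = 0.542) on the log2 scale. Ifit2 measured 36.2, 0, 23.8 and 13.2 CPM in saline WT and 92.4, 89.99, 80.6 and 45.3 CPM under the KO label, with no overlap. In bleomycin WT it was 70.01, 73.3, 47.9 and 1.60 CPM, also above saline WT except for bleomycin WT 4. In the 10 libraries Ifit2 was 1.64 (SE 0.40) with an edgeR adjusted p of 0.0956, the smallest of the 34, and 6 of 34 had an unadjusted p under 0.05 (16.8% of genes) and 0 were called (0.643%).

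The genes with the lowest values were Oas3 at -1.005 (SE 1.23) and Oasl2 at -0.77 (SE 0.52), and in 10 libraries -1.31 (SE 0.95) and -1.06 (SE 0.33). Usp18, Ifit2 and Gbp3 were higher in all KO-labelled than in all saline libraries (3 of 34, beside 8.17% of genes), none was lower (1.04%), and the 10 libraries added Bst2 to the higher genes (4 of 34, beside 9.29%) with none lower (7.25%). The median of the 34 was 0.31, beside 0.04 for all genes, with 22 above 0 (51.7% of all genes). It was 0.13 beside -0.15 in 10 libraries and 0.18 beside -0.12 with DESeq2 size factors. The antiviral effectors had a median of 0.15 and the GTPases 0.76, and without saline WT 1 these were -0.07 and 1.07. Without saline WT 3 the median of the 34 was 0.83, beside 0.17 for all genes. The KO-labelled and saline libraries did not overlap in neutrophil markers (1160 to 1943 against 2677 to 28882 CPM) or epithelium markers (171 to 644 against 1465 to 2347 CPM). Summed macrophage markers did not overlap either (47466 to 68188 against 14290 to 33937 CPM). By gene, Cx3cr1 (-1.77, SE 0.77), Itgam (-0.31, SE 0.57) and Csf1r (-0.04, SE 0.51) were below 0 in 12 libraries. The other macrophage markers were above 0. Among the epithelium markers, Cdh1 (1.41, SE 0.75) was above 0 in 12 libraries and the others were below 0. The part of these cells in the values of the 34 genes was not tested.

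The rest of the interferon pathway is given from 80 genes in 7 lists. Of the 8 ligands, Ifna1 and Ifnl2 had no count in any library, and Ifna2, Ifna4, Ifna5 and Ifnl3 had 8, 12, 3 and 3 counts over all 12. Ifnb1, the interferon beta gene, measured 26.5, 0, 1.13 and 1.16 in saline WT, 1.20, 0.371, 0.487 and 0 in bleomycin WT and 1.76, 4.48, 4.41 and 2.28 CPM under the KO label. The KO-labelled libraries, with 28, 68, 57 and 20 counts, were above all bleomycin WT libraries, with 12, 6, 6 and 0 counts. The log2 fold change was 2.60 (SE 1.23, edgeR adjusted p = 0.9998) in 12 libraries and 2.24 (SE 1.20) in 10, so it did not pass the test. The saline value of 26.5 CPM is 109 counts in saline WT 1 alone. Ifng, the interferon gamma gene, was at 0 to 9.12 CPM in saline WT, 1.30 to 2.40 CPM in bleomycin WT and 1.005 to 5.34 CPM under the KO label.

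None of the other pathway genes passed with edgeR in 12 libraries in any comparison, whether of 10 receptor and JAK-STAT genes, 12 inducers, 5 feedback genes, 23 tested of 24 further induced genes, 9 tested of 10 further GBP and IRG genes or 11 genes of MHC class I loading. Between bleomycin KO and bleomycin WT the further induced genes had 14 of 23 above 0 in 12 libraries and 18 of 23 in 10. The further GBP and IRG genes had 4 of 9 and 7 of 9, and the MHC class I genes 9 of 11 and 9 of 11. The receptor and JAK-STAT genes had 3 of 10 in both. Over all tested genes 49.3% were above 0 in 12 libraries and 47.6% in 10. Cxcl10, a chemokine gene induced by both interferon types, measured 214, 102, 157 and 92.8 CPM in bleomycin WT and 222, 256, 303 and 236 CPM under the KO label, with no overlap under TMM but with overlap under DESeq2 size factors. Of the 72 tested genes of the 7 lists, 4 were higher in all 4 KO-labelled than in all bleomycin WT libraries (Ifnb1, Cxcl10, Ifi207 and the double-stranded RNA receptor gene Tlr3, beside 0.905% of tested genes), and 0 were lower (0.594%). Under DESeq2 size factors Irgm2 took the place of Cxcl10 among the 4 (0.833% of tested genes).

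Socs3, which restrains cytokine signalling, was the pathway gene nearest to the threshold. It passed in bleomycin KO against saline WT in the 10 libraries, where 0.643% of tested genes were called. It measured 203, 97.3, 176 and 254 in saline WT, 477, 757, 528 and 308 in bleomycin WT and 810, 544, 466 and 446 CPM under the KO label, and neither bleomycin group overlapped saline WT. Against saline it was 1.48 (SE 0.43, edgeR adjusted p = 0.219) in bleomycin WT and 1.61 (SE 0.44, adjusted p = 0.232) under the KO label, and in 10 libraries 1.45 (SE 0.27, adjusted p = 0.0542) and 1.41 (SE 0.26, adjusted p = 0.0473). It is induced by many cytokines other than interferons. Ifngr1, a chain of the interferon gamma receptor, and Jak1, a kinase shared by both interferon types, had log2 values in bleomycin KO against bleomycin WT of -0.04 (SE 0.50) and 0.01 (SE 0.39). Irf5 and Irf8, macrophage factors of the interferon regulatory family, had 0.02 (SE 0.42) and 0.13 (SE 0.45). The phosphatase gene Ptpn6 had 0.35 (SE 0.59), and the induced genes Ly6e and Ifi27l2a had 0.30 (SE 0.35) and 0.75 (SE 0.46). The further GBPs Gbp4 and Gbp9 had -0.59 (SE 0.69) and -0.85 (SE 0.74), and 0.18 (SE 0.48) and 0.03 (SE 0.43) in 10 libraries. The MHC class I genes B2m and H2-D1 had 0.44 (SE 0.35) and 0.30 (SE 0.44).

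Plasmacytoid dendritic cells are a strong source of type I interferon. Their 6 markers summed to 136 to 187 CPM in saline WT, 93.5 to 313 CPM in bleomycin WT and 79.8 to 114 CPM under the KO label. Siglech, the most specific of them, was at 0 to 59.7 CPM in saline WT and 6.03 to 14.9 CPM under the KO label. In bleomycin WT it was at 0.355 to 12.8 CPM, lowest in bleomycin WT 4. Tcf4, which other cells express too, made up most of the sum in every bleomycin library. In saline WT 2 it was the only one of the 6 with any count. T and NK cells are the usual source of interferon gamma, and their 10 markers summed to 10.8 to 291 CPM in saline WT, 166 to 802 CPM in bleomycin WT and 171 to 443 CPM under the KO label. The plasmacytoid dendritic sums were lower in all KO-labelled than in all saline libraries, although the saline WT 2 sum of 184 CPM was Tcf4 alone. Those of bleomycin WT 1 to 3 (93.5 to 108 CPM) were also lower than all saline sums, while bleomycin WT 4 was the highest of the 12. The T and NK sums overlapped between the groups. The part of either cell type in the interferon-stimulated gene values was not tested.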

How the data were processed

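The deposited table holds raw counts per Ensembl gene made by the authors from single-end SMART-Seq v4 libraries, a kit that keeps no strand. GSNAP, limma, Partek, GRCm38 and mm10 are named in the submitters' processing notes, with no versions, and the sources used here give no counting rules. Exon lengths per gene come from the authors' deposited gene table. The design text of the series describes another experiment and was not used. Of 52636 genes, 11872 had no count.

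Genes were filtered with filterByExpr, scaled by TMM and tested with edgeR 4.0.16 (quasi-likelihood, robust, R 4.3.3) in 1 fit of 12 libraries, with Benjamini-Hochberg adjustment over all tested genes at 0.05. Each SE was derived from the log2 fold change and its F statistic. Levels are CPM, or log2(CPM + 1) for spreads and medians. DESeq2 1.42.0 and limma 3.58.1 were alternatives, and the script was tested on simulated data. The fit of 10 libraries was chosen after seeing the data. Members, lists and tests were chosen with earlier results of these data known. Values in every library are given for the most abundant genes per kb of each class and the extremes of each comparison. Isg15, Usp18, Gbp3, Irgm1 and Igtp were also shown for their separation, and Ifit2 and the genes far off in bleomycin WT 4 were chosen after their values were seen.

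The closest pair of libraries had a chi-square of 18.6 per degree of freedom, far above sampling noise. With 3 counts as the floor, 1 library reached 32.4 CPM and the other 11 stood at 0.730 CPM or below, which covers counting error only.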

Additional observations from a re-analysis of the deposited data

Results flagged for a closer look

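Within each group of 4, the highest or lowest library was compared with its nearest neighbour relative to the group's range, on the log2(CPM + 1) scale. Of 102 such gene-by-group sets 25 had 1 library standing apart, where chance gives about 1 in 20, and 16 of the 25 were bleomycin WT 4. The rule was not run over all tested genes, so the count is not shown to be particular to these genes. Bleomycin WT 4 was lowest of its group for 20 of the 34 genes, beside 53.2% of tested genes, and highest for 11, beside 30.9%. Saline WT 2 was lowest for 21, beside 69.3%.

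Bleomycin WT 4 was the low library for Isg15 (0.533 CPM), Usp18 (12.6 CPM), Ifit2 (1.60 CPM), Mx1 (3.02 CPM), Oas1a (5.33 CPM), Bst2 (9.42 CPM), Rtp4 (9.60 CPM), Xaf1 (1.42 CPM), Zbp1 (3.55 CPM) and Irf9 (4.98 CPM). The GTPase genes Gbp3 (7.11 CPM), Irgm1 (7.997 CPM) and Igtp (3.91 CPM) were low there too. It was the high library for Rsad2 (205 CPM), Gbp7 (631 CPM) and Ifi47 (227 CPM). Its median over the 34 genes (3.39 on the log2(CPM + 1) scale), over the antiviral effectors (2.81) and over the GTPases (4.84) was also the low one of its group.

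Saline WT 2, with 60598 counts in all, had no count of Ifit1, Cmpk2 or Oas1a (each 0 CPM), a GTPase median of 0.00, and the high Bst2 level of its group (313 CPM). Saline WT 3 was the high library for Isg15 (87.3 CPM) and Zbp1 (132 CPM). In saline WT 1 the antiviral effectors lay furthest below the GTPases, by a log2 difference of -2.19. Under the KO label the libraries standing apart were number 2 for Ifit3 (33.2 CPM, low), number 3 for Gbp3 (107 CPM, high) and number 4 for Gbp5 (5.13 CPM, low). The causes of these values were not tested.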

How the results depend on the processing

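No interferon-stimulated gene passed the threshold in any comparison under any alternative run, except 2 (Ifih1 and Gbp5) in bleomycin WT against saline WT with no filter on low counts; the stricter filter tested 32 of the 34. Counts over all genes moved more. For bleomycin WT against saline WT the 4 genes became 1 with DESeq2 size factors, 780 with no filter, 512 with DESeq2, 319 with limma-voom quality weights, 2 with the replicate block, 0 with only the groups compared, 81 in 10 libraries, and 1 to 11 leaving out each library (1 without saline WT 3, 11 without bleomycin WT 4). For bleomycin KO against bleomycin WT 0 became 243 with no filter. For bleomycin KO against saline WT 3 became 1 with DESeq2 size factors, 694 with no filter, 370 with DESeq2, 12 with limma-voom, 232 with quality weights, 1 with the replicate block, 1 with only the groups compared, 121 in 10 libraries, and 0 to 18 leaving out each library (0 without saline WT 3, 18 without bleomycin WT 4). Leaving out each library, the median log2 fold change of the 34 genes ran from -0.04 to 0.68, 0.26 to 0.64 and 0.23 to 0.83 in the 3 comparisons in that order. Replicate numbers did not pair the libraries (r of -0.18 to 0.05 over 12 same-number pairs, and 0 of 12 libraries correlated best with their own number).

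Signs turned only for values that did not pass the test, counted where the 12-library value exceeded its SE. In bleomycin KO against bleomycin WT, leaving out each library gave -2.14 to 0.42 for Gbp5, -1.41 to 0.32 for Gbp7, -2.13 to 0.050 for Ifih1, -1.69 to 0.089 for Oas2, -1.01 to 0.19 for Ifit1 and -1.07 to 0.0040 for Gbp9, each highest without bleomycin WT 4. Quality weights gave 0.43, 0.42, 0.14 and 0.20 for Gbp5, Gbp7, Ifih1 and Oas2 and 0.12 for Gbp9, and 10 libraries gave 0.44, 0.34, 0.068 and 0.11, with 0.20 for Ifit1 and 0.026 for Gbp9. In bleomycin WT against saline WT, leaving out each library gave -0.80 to 0.038 for Gbp2 (highest without saline WT 1), -0.021 to 2.49 for Oas2 and -0.046 to 1.39 for Gbp9. Oas2 was -0.27 with quality weights, and in 10 libraries Oas2 was -0.28, Gbp9 -0.42 and Ifit1 -0.054. In bleomycin KO against saline WT, Ifnb1 ran from -1.72 to 1.59 leaving out each library, and was 0.00049 with limma-voom, 0.92 with quality weights and 0.19 with the replicate block. The causes were not tested beyond the libraries named. Depth limits saline WT 2 most, where 3 counts are 32.4 CPM.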
